A study of Mus musculus with 8 samples.

Results

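The genes described here are 5 members of the plasminogen activation system and of the serpin family of protease inhibitors, Serpinb2, Serpinb1a, Serpinb9, Plau and Plaur, in mouse bone marrow-derived macrophages. They were chosen by their levels on these same arrays, across LPS time, CD14 genotype and EGTA, and were taken with all 7 probe sets that the platform annotation gives to them alone, out of 12394 genes named on an array of 22690 probe sets. Total RNA was measured on 8 Affymetrix arrays, 1 for each group. Bone marrow cells of mice aged 6 to 8 weeks had been kept in medium with M-CSF and 10% serum for 7 days to become macrophages. The CD14-deficient cells came from Cd14-/- C57BL/6 mice and were measured unstimulated and after 6 h and 24 h of lipopolysaccharide (LPS, 1 µg/ml), a component of the bacterial outer membrane. Cells of C57BL/6 wild-type mice were measured after 6 h and 24 h of the same dose of LPS with EGTA, and unstimulated and after 6 h and 24 h of LPS without it. The LPS is labelled as smooth for the wild-type cells and has no such word for the CD14-deficient cells. CD14 hands LPS to its receptor complex, and EGTA binds calcium outside the cell. The EGTA concentration, 2 mM, is labelled for the 24 h sample and not for the 6 h sample. The labels do not say whether marrow of several animals was pooled. According to the series' title and design text, the question was which LPS responses go with calcium fluxes and activation of the transcription factor NFAT. An array with EGTA and no LPS was not analysed here.

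Plasminogen is a circulating zymogen that cell-bound activators cut into plasmin, a protease that dissolves fibrin and helps cells to pass through matrix. Macrophages make the urokinase-type activator, encoded by Plau, and its receptor, encoded by Plaur, which holds the enzyme at the cell surface. Serpins are inhibitors that trap a protease by offering a loop as a bait substrate. Serpinb2 encodes PAI-2, an inhibitor of urokinase that is largely kept inside the cell and is known as an LPS-induced product of monocytes and macrophages. Serpinb1a encodes an inhibitor of elastase, cathepsin G and related granule proteases, and Serpinb9 an inhibitor of granzyme B, the protease of killer lymphocytes.

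The values below are MAS5 intensities that were quantile normalized over the 8 arrays. Values under an intensity of 38.4, the 40th percentile of all normalized values, were raised to it as a floor, below which values are not ranked. A gene was compared between 2 arrays where the brighter one exceeded the median of all values, 88.2, and a difference of at least 2-fold was counted. Where the dimmer array of a pair was at the floor, the fold is a lower limit, written "at least". Each group had 1 array, so no difference has a replicate check and no test was possible. Levels are compared between arrays for 1 probe set at a time and never between genes. Exceptions are the summed levels of marker genes and the mean of all probe sets of a gene, which join several probe sets. A sum weighs its brightest genes most.

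Before normalization the trimmed means of the arrays ran from 314 to 527. RNA integrity numbers ran from 9.3 to 9.7. The cRNA yield was lowest, 31.4 µg, for EGTA at 24 h and highest, 76 µg, for the 6 h wild-type LPS array. Of the 7 macrophage marker genes measured, 6 were above 88.2 on all 8 arrays, and Cd14 itself was at the floor on all 3 CD14-deficient arrays and between 3849 and 12515 on the wild-type ones. All 7 markers of T and NK cells, all 4 of B cells and all 5 of dendritic cells were at the floor on every array. Of 8 neutrophil markers S100a8 and Camp passed the comparison level, Mpo and Elane were above the floor on 1 array each, at up to 43.0, and S100a9, Ngp, Ltf and Cxcr2 were at the floor throughout. Camp had 107 in CD14-deficient cells at 24 h of LPS against 38.6 in wild-type cells at 24 h, and was at the floor on the other 6 arrays. S100a8 and the stromal markers are given beside Serpinb2.

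Promoters of 3 members, Serpinb2, Serpinb9 and Plaur, are held in the RefSeq table of assembly GRCm38.p6, and the 250 bases before the start site are shown because the members' patterns over LPS time differ from each other. Serpinb1a and Plau were not matched. Capitals mark every match, on either strand, to the 7 motifs searched, which were a TATA box (TATAAA), the NFAT core (GGAAA), AP-1 (TGANTCA), a cyclic AMP response element (TGACGTCA), C/EBP (TTGCNNAA), the core of the interferon-stimulated response element (GAAA, any 2 bases, GAAA) and the NF-kB consensus. No match overlapped another in these windows.
Serpinb2, chr1:107511173-107511422, plus strand: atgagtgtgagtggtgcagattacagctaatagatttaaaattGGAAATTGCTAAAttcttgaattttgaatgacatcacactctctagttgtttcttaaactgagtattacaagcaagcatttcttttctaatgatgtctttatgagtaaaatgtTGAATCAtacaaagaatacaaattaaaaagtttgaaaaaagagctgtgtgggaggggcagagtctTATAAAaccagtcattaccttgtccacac
Serpinb9, chr13:33004291-33004540, plus strand: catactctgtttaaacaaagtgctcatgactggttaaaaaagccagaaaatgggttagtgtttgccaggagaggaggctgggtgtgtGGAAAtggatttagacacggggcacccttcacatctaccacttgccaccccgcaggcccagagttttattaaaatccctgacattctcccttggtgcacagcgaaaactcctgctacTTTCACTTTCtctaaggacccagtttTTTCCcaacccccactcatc
Plaur, chr7:24462233-24462482, plus strand: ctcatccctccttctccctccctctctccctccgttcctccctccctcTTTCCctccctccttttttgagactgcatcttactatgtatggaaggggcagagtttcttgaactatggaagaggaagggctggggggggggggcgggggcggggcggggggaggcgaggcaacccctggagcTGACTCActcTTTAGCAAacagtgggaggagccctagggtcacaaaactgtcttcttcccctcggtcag

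In the Serpinb2 window, with all matches on the plus strand, the NFAT core, at 207 to 203 bases before the start, adjoined a C/EBP match, an AP-1 match lay at 94 to 88 bases and a TATA box at 29 to 24 bases. Serpinb9 had an NFAT core at 163 to 159 bases and, on the minus strand, another at 20 to 16 bases and a match to the interferon-stimulated response element at 46 to 37 bases. Plaur had an AP-1 match at 69 to 63 bases and, on the minus strand, a C/EBP match at 59 to 52 bases and an NFAT core at 202 to 198 bases. Of 32851 promoter windows of the same length in the table, 55.6% held an NFAT core, 12.4% a TATA box, 9.56% a C/EBP match, 6.75% an AP-1 match and 2.98% the interferon-stimulated response element. A cyclic AMP response element was in 1.55% and an NF-kB consensus in 7.25% of all windows, and these letters were in none of the 3 shown. A second Serpinb2 start site, 107511510 on the same strand, is listed and its window is not shown. A match is a description of letters and not evidence of binding, and its relation to the time courses was not tested.

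The members showed unlike time courses. Serpinb2 was at the floor before LPS in both genotypes and high late in wild type, Serpinb1a was highest at 6 h, Serpinb9 was high at both times, Plau was near or at the floor on most arrays, and Plaur was highest at 6 h and lowest at 24 h. The members were chosen with these arrays in view, so all of their values are descriptions. RNA of whole cultures cannot tell fewer cells expressing a gene from less RNA per cell. Unstimulated cells were harvested 24 h after plating, while the labels do not give the time from plating to LPS. The time since plating may thus differ between the LPS arrays of either time and the unstimulated ones. It may also differ between the 24 h and the 6 h arrays. In all of these comparisons it cannot be told apart from LPS.

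**Figure D1:**
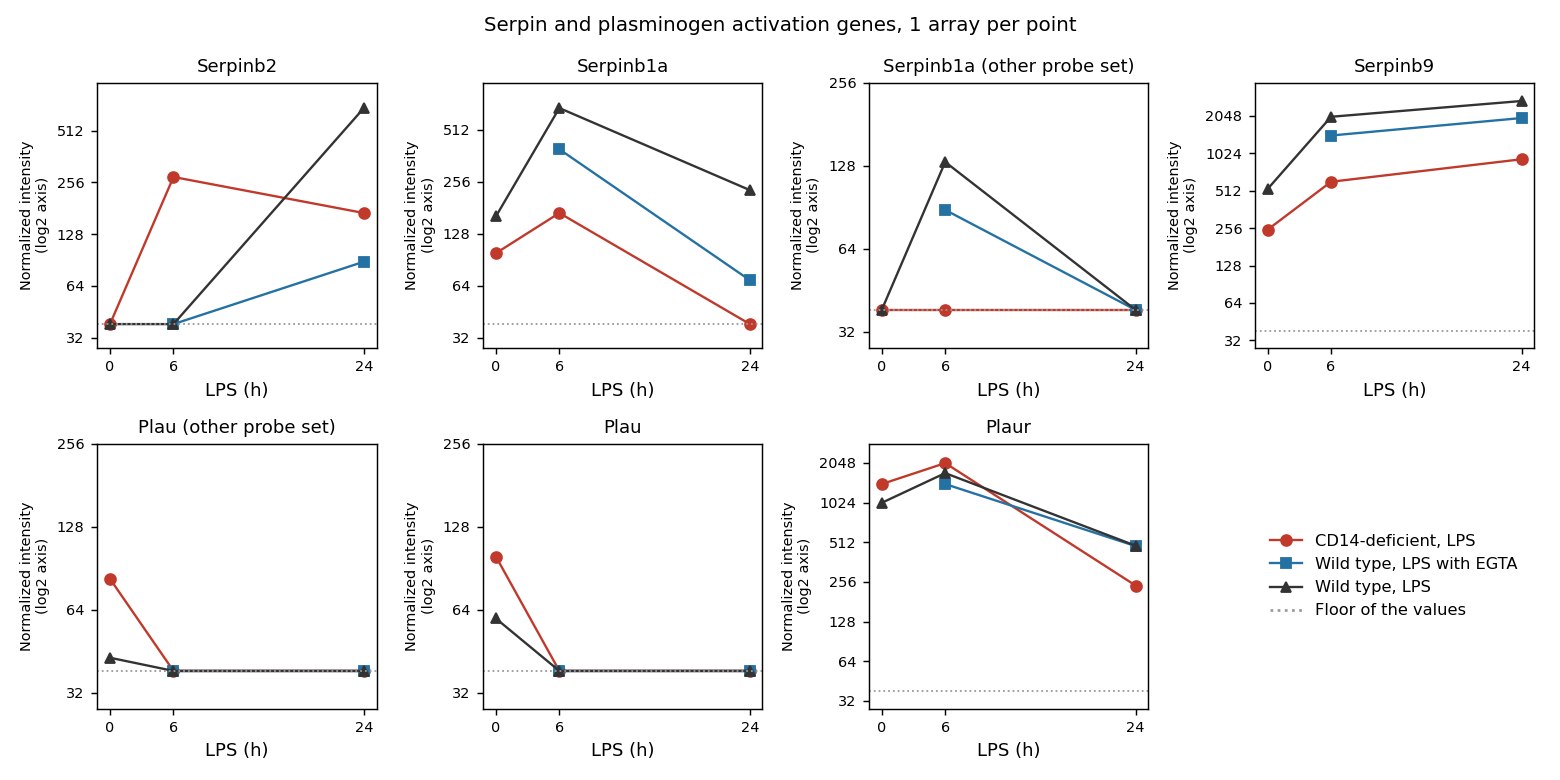
Normalized intensity on a log2 axis against hours of LPS for the 7 probe sets of the 5 members, 1 array per point, for CD14-deficient cells, wild-type cells given LPS with EGTA and wild-type cells given LPS; the dotted line is the floor of 38.4. Serpinb2 reached 693 only in wild type at 24 h, Serpinb1a and Plaur were highest at 6 h, and Serpinb9 stayed high at 24 h.

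Serpinb2, the urokinase inhibitor, had an intensity of 38.4, the floor, in unstimulated CD14-deficient cells, 275 at 6 h of LPS and 169.7 at 24 h. With EGTA it was at the floor at 6 h of LPS and 88.5 at 24 h. In wild type without EGTA it was at the floor unstimulated and at 6 h, and 693 at 24 h. The CD14-deficient cells thus held their higher value at 6 h, and the wild-type cells at 24 h, with and without EGTA.

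At 6 h of LPS the CD14-deficient cells had at least 7.17-fold more Serpinb2 signal than wild type. At 24 h the order was the other way, with 169.7 in CD14-deficient cells against 693 in wild-type cells, a log2 difference of -2.03 or 4.08-fold lower. With EGTA at 24 h it was 7.83-fold lower than with LPS alone, a log2 difference of -2.97. No difference can be given for EGTA at 6 h, since both arrays were at the floor. The value with EGTA at 24 h, 88.5, lay only just above the comparison level, so its fold is imprecise.

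Against unstimulated cells, LPS for 24 h gave a Serpinb2 level at least 4.42-fold higher in CD14-deficient cells, at least 2.31-fold higher with EGTA and at least 18.1-fold higher in wild type. Going on to 24 h from 6 h, the level was 1.62-fold lower in CD14-deficient cells, at least 2.31-fold higher with EGTA and at least 18.1-fold higher in wild type. With the floor raised to the median of all values, the log2 difference of EGTA at 24 h against unstimulated cells was 0.01 and the bound for CD14-deficient cells at 24 h was 0.94, so neither reached 2-fold. As deposited, the EGTA value at 24 h was 74.7, under the comparison level of that setting. Its rise over unstimulated cells and over 6 h was then not compared.

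S100a8 and Dcn, markers of neutrophils and of stroma, shared part of the Serpinb2 pattern. S100a8, a calcium-binding protein gene abundant in neutrophils, had 90.6, 236 and 507 in CD14-deficient cells at 0, 6 and 24 h of LPS, 118 and 403 with EGTA at 6 and 24 h, and 138, 99.7 and 432 in wild type at 0, 6 and 24 h. Like Serpinb2 its 6 h value in CD14-deficient cells was above that of wild type, by 2.37-fold, and it was higher at 24 h than at 6 h in wild type, by 4.33-fold with LPS alone. Unlike Serpinb2 it was also higher at 24 h than at 6 h in CD14-deficient cells, by 2.15-fold. At 24 h CD14-deficient cells had 507 against 432 in wild type, while Serpinb2 was below wild type there. Camp too was highest on that CD14-deficient array. The summed level of the 8 neutrophil markers ran from 359 to 844 on the CD14-deficient arrays, from 386 to 680.0 with EGTA and from 368 to 701 on the wild-type arrays without EGTA. These sums include the floor value of each marker at the floor, and only S100a8 and Camp of the 8 passed the comparison level. Dcn, which encodes the matrix proteoglycan decorin of fibroblasts, had 58.2 with EGTA at 24 h against 192 in wild type at 24 h, and was at the floor on the other 6 arrays. Of the 6 stromal markers only Dcn passed the comparison level on any array, while Col1a1, Col3a1 and Pdgfra were at the floor on all 8. Col1a2, also a collagen gene, was above the floor on 1 array, wild type at 24 h of LPS (48.5), which had the highest Serpinb2 and Dcn values. Pdgfrb was above the floor on 1 array, CD14-deficient cells at 6 h of LPS (51.7). The summed level of the 6 stromal markers ran from 230.2 to 243.6 on the CD14-deficient arrays, from 230.2 to 250.1 with EGTA and from 230.2 to 394.2 on the wild-type arrays without EGTA, where 230.2 is the sum of 6 floors. On the CD14-deficient arrays at 6 h and 24 h of LPS, with Serpinb2 at 275 and 169.7, Dcn was at the floor. Pdgfrb had 51.7 on the 6 h one of these. The part of these markers in the Serpinb2 result was not tested.

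Serpinb1a, the elastase inhibitor gene, was lower than in wild type under both EGTA and CD14 deficiency. It had an intensity of 98.7 in unstimulated CD14-deficient cells, 169 at 6 h of LPS and the floor at 24 h. With EGTA it had 396 at 6 h and 68.9 at 24 h. In wild type it had 161 unstimulated, 686 at 6 h and 229 at 24 h. Each genotype thus had its highest array at 6 h, and wild type was the highest at each time.

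At 6 h of LPS the log2 difference of Serpinb1a was -0.79 with EGTA (1.73-fold lower) and -2.02 in CD14-deficient cells (4.06-fold lower). At 24 h it was -1.73 with EGTA (3.33-fold lower), and CD14-deficient cells were at least 5.98-fold lower than wild type. Before LPS CD14-deficient cells were 1.63-fold lower. The EGTA and CD14 comparisons are read against the same wild-type array at each time and are not independent.

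After 6 h of LPS Serpinb1a was 1.71-fold higher than unstimulated in CD14-deficient cells, 2.45-fold with EGTA and 4.25-fold in wild type. After 24 h the CD14-deficient level was at least 2.57-fold below unstimulated and the EGTA level 2.34-fold below it, while the wild-type level was 1.42-fold above. The difference between these responses was not tested. As deposited, the wild-type log2 difference was -0.24 and the 6 h difference with EGTA was 0.31, beside medians over all genes of -0.66 and -0.97. With the floor at the median of all values, the 24 h log2 differences were -0.16 in CD14-deficient cells and -0.87 with EGTA, short of 2-fold.

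The other Serpinb1a probe set, a type that can match several transcripts, was dimmer. It was at the floor on all 3 CD14-deficient arrays, had 88.5 with EGTA at 6 h against 132 in wild type at 6 h, and was at the floor on the other 3 wild-type arrays. It was thus also highest in wild type at 6 h. At 24 h it gives no difference, and with the mean of both probe sets the EGTA difference at 24 h was -0.87 in log2, short of 2-fold.

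Serpinb9, the granzyme B inhibitor gene, was at least 2-fold higher than unstimulated in all 6 comparisons of LPS with unstimulated cells. These comparisons share 1 unstimulated array per genotype and are not independent. The EGTA arrays also differ from the unstimulated wild-type array by EGTA. Serpinb9 intensity in CD14-deficient cells was 249 unstimulated, 604 at 6 h and 916 at 24 h. With EGTA it was 1421 at 6 h and 1964 at 24 h. In wild type it was 528 unstimulated, 2011 at 6 h and 2693 at 24 h. The level was higher at 24 h than at 6 h in every series, by 1.34-fold to 1.52-fold, although the wild-type log2 difference was -0.01 as deposited, and all 3 CD14-deficient arrays were below the wild-type array of the same time.

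CD14-deficient cells were below wild type in Serpinb9 by 2.12-fold before LPS, 3.33-fold at 6 h and 2.94-fold at 24 h. Relative to their own unstimulated array, CD14-deficient cells were 2.43-fold higher at 6 h and 3.68-fold at 24 h. With EGTA the level was 2.69-fold and 3.72-fold above unstimulated wild-type cells at these times, and in wild type without EGTA it was 3.81-fold and 5.10-fold above them. The log2 difference of EGTA against LPS alone was -0.50 at 6 h and -0.45 at 24 h, both short of 2-fold. As deposited, the 6 h log2 differences from unstimulated cells were 0.84 in CD14-deficient cells and 0.62 with EGTA, beside medians over all genes of -0.46 and -0.97.

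Plau, the urokinase gene itself, was measured above the floor only before LPS. The brighter of its 2 probe sets had 99.8 in unstimulated CD14-deficient cells and 59.5 in unstimulated wild-type cells, a log2 difference of 0.75. It was at the floor on all 6 LPS arrays. The other probe set had 82.8 in unstimulated CD14-deficient cells and 42.8 in unstimulated wild-type cells, and was at the floor on the same 6 arrays. In CD14-deficient cells Plau was at least 2.60-fold lower after LPS at both times, and with the floor at the median of all values the log2 difference was -0.18, short of 2-fold. In wild type no comparison was made, since 59.5 lies under the comparison level.

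Plaur, the urokinase receptor gene, had its lowest value at 24 h of LPS in each series. It had an intensity of 1415 in unstimulated CD14-deficient cells, 2041 at 6 h of LPS and 240.4 at 24 h. With EGTA it had 1415 at 6 h and 479 at 24 h. In wild type it had 1019 unstimulated, 1713 at 6 h and 482 at 24 h. All 3 arrays at 24 h lay below the other 5, and CD14-deficient cells had both the highest value, at 6 h, and the lowest, at 24 h.

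At 24 h Plaur was lower than at 6 h by 8.49-fold in CD14-deficient cells, 2.96-fold with EGTA and 3.56-fold in wild type. Against unstimulated cells the 24 h level was 5.89-fold lower in CD14-deficient cells, 2.13-fold lower with EGTA and 2.12-fold lower in wild type. With arrays scaled to equal medians the log2 differences with EGTA and in wild type were -0.89 and -0.90, short of 2-fold. At 6 h Plaur was above unstimulated by 1.44-fold in CD14-deficient cells, 1.39-fold with EGTA and 1.68-fold in wild type, which became 1.02 in log2 at equal medians. Its log2 difference with EGTA was -0.28 at 6 h and -0.01 at 24 h, the smallest of any member compared at these times. CD14-deficient cells stood at 0.47 before LPS, 0.25 at 6 h and -1.003 at 24 h against wild type. The 24 h value lies on the 2-fold limit and was -0.53 as deposited, beside a median over all genes of 0.43, and the 6 h value was then -0.09.

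Counts of members at least 2-fold different are given with the share of all compared genes, and nothing is read from them, since these arrays chose the members. With EGTA at 6 h of LPS none of 3 members compared differed, against 0.816% of all genes, and at 24 h 2 of 4 were lower, against 1.11% of all genes lower. The median log2 difference of the members was -0.50 at 6 h and -1.09 at 24 h, beside 0.01 and 0.00 over all genes. As deposited, 3 of the members were at least 2-fold lower with EGTA at 6 h, with log2 differences of -1.65 for Serpinb1a, -1.30 for Serpinb9 and -1.08 for Plaur, beside a median of -0.78 over all genes.

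In CD14-deficient cells against wild type, 1 of 4 members compared was lower before LPS, against 3.20% of all genes lower. At 6 h of LPS 2 were lower and 1 higher, against 5.61% of all genes differing either way. At 24 h all 4 were lower, against 6.21% of all genes lower, and the members' median was -1.79 beside 0.02 over all genes. Serpinb2, Serpinb1a and Serpinb9 lay outside the central 95% of all genes at both LPS times, and none of the 4 did before LPS.

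After LPS for 6 h, CD14-deficient cells had 2 of 5 members higher and 1 lower, against 19.3% of all genes either way. With EGTA 2 of 3 compared were higher, against 11.3% higher, and in wild type 2 of 3, against 10.5%. After 24 h, CD14-deficient cells had 2 of 5 higher and 3 lower, against 17.1% either way. With EGTA 2 were higher and 2 lower of 4, against 23.0%, and in wild type 2 were higher and 1 lower of 4, against 21.3%. From 6 h to 24 h, 2 of 4 members were lower in CD14-deficient cells, against 6.16% lower. With EGTA 1 was higher and 2 lower of 4, against 11.7%, and in wild type likewise 1 higher and 2 lower of 4, against 11.1%. Serpinb1a and Plaur were the lower genes in all 3 of these late comparisons.

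**Figure D2:**
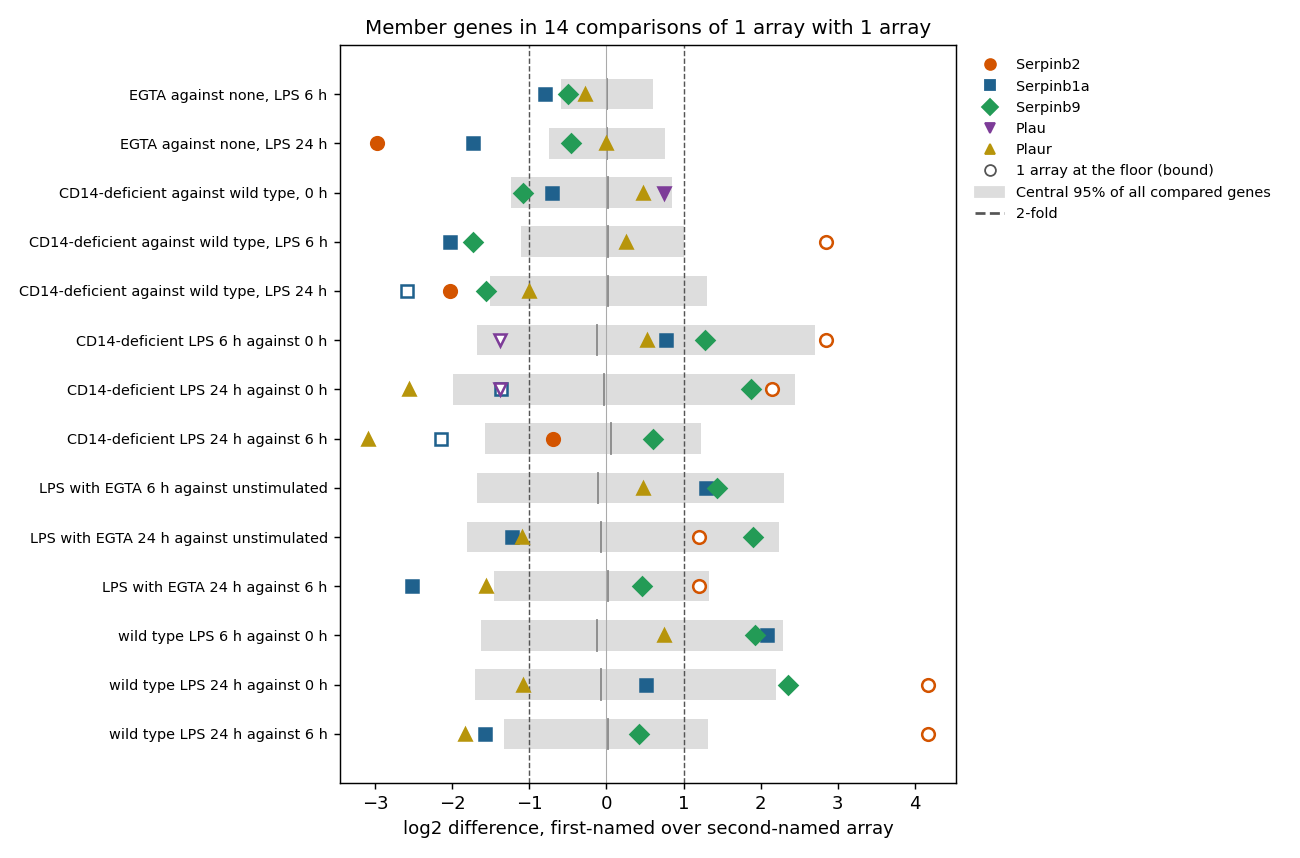
Log2 difference of each member in 14 comparisons of 1 array with 1 array, with grey bars for the central 95% of all compared genes, a tick for their median, open symbols for bounds and dashed lines at 2-fold. With EGTA at 24 h Serpinb2 (-2.97) and Serpinb1a (-1.73) lay outside the grey bar while Serpinb9 (-0.45) and Plaur (-0.01) lay inside it.

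A list of 24 further genes held those of plasminogen activation, with coagulation genes (such as F3, Tfpi, Tfpi2 and Thbd), integrin genes (Itgam, Itgb2) and A2m. Of these 24 genes, 20 had a probe set and 9 passed the comparison level. Plg, which encodes plasminogen, was at the floor on all 8 arrays, and so were 7 others, among them Vtn and Serpina5. Plat, which encodes the tissue-type activator, had 63.4 in CD14-deficient cells, 59.8 with EGTA and 70.3 in wild type at 6 h of LPS and was at the floor on the other 5 arrays. Plgrkt, Anxa2 and S100a10, which encode surface binders of plasminogen or its activator, passed the level on every array. With EGTA 0 of 8 compared genes reached 2-fold at 6 h or 24 h, with medians of -0.09 and -0.13. Over all genes 37 were higher and 18 lower of 6740 at 6 h, and 69 and 75 of 6754 at 24 h. As deposited, Tfpi was at least 2-fold lower with EGTA at 6 h. In CD14-deficient cells against wild type none of 9 reached 2-fold before LPS, none of 8 at 6 h and none of 9 at 24 h. Among all genes, 95 were higher and 217 lower of 6782 before LPS. At 6 h these were 171 and 208 of 6761, and at 24 h 357 and 425 of 6846. Nothing is read from such counts in a list this short. Other settings called Anxa2 lower at 6 h, S100a10 lower at 24 h or Thbd higher at 24 h, 1 gene in each.

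With each gene read from its brightest probe set, Lrp1 and Thbd were the genes of this list at least 2-fold different between LPS and unstimulated arrays. A dimmer Anxa2 probe set had 78.4, 49.7 and 166 in CD14-deficient cells at 0, 6 and 24 h, 138 and 132 with EGTA at 6 and 24 h, and 72.5, 179 and 211 in wild type, and would call Anxa2 higher in wild type at both times and in CD14-deficient cells at 24 h. Other scalings changed these calls as well, with up to 6 genes lower with EGTA at 6 h as deposited. Lrp1, a receptor that clears complexes of urokinase with its inhibitors, had 3043 in unstimulated CD14-deficient cells, 1412 at 6 h and 1143 at 24 h. In wild type it had 1687, 1113 and 963 at these times, and with EGTA 1198 and 1215 at 6 h and 24 h. Lrp1 was at least 2-fold lower after LPS on both CD14-deficient arrays, by 2.16-fold and 2.66-fold, and short of 2-fold on the wild-type ones, and the difference from wild type was not tested. The 6 h call in CD14-deficient cells was lost with arrays scaled to equal medians, and as deposited Lrp1 was also at least 2-fold lower in wild type at 24 h and with EGTA at 6 h. Thbd, which encodes the anticoagulant receptor thrombomodulin, was 197 in unstimulated CD14-deficient cells and 216 in unstimulated wild-type cells. It was at the floor on all 3 arrays at 6 h of LPS, and at 24 h it had 99.1 in CD14-deficient cells, 72.1 with EGTA and 59.6 in wild type. The arrays at 6 h were thus lower than the unstimulated ones under every condition measured.

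Of 24 other serpins of clade B, the branch to which all 3 serpin members belong, 11 had a probe set and 4 passed the comparison level, Serpinb6a, Serpinb6b, Serpinb8 and Serpinb9b. In the RefSeq table Serpinb1a, Serpinb9, Serpinb6a, Serpinb6b and Serpinb9b lie in a run of 16 neighbouring clade B genes on chromosome 13, and Serpinb2 and Serpinb8 in a run of 12 on chromosome 1. Probe sets of such related genes may share target sequence. With EGTA all 4 were below the array without it at both times, but none by 2-fold, with log2 differences from -0.69 to -0.02 at 6 h and from -0.85 to -0.18 at 24 h. As deposited, Serpinb6b and Serpinb9b were at least 2-fold lower with EGTA at 6 h. At 24 h the CD14-deficient cells had 3 of 4 at least 2-fold below wild type, where 6.21% of all genes were lower. At 6 h 1 was lower, where 5.61% of all genes differed either way, and before LPS none was, where 3.20% of all genes were lower. As deposited, the 24 h count was 2, without Serpinb9b.

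Serpinb6b, an intracellular serpin gene, had 1272 in unstimulated CD14-deficient cells, 982 at 6 h of LPS and 502 at 24 h. With EGTA it had 1575 at 6 h and 789 at 24 h, and in wild type 1290, 2537 and 1294 at 0, 6 and 24 h. Its highest array was wild type at 6 h, as for Serpinb1a, and CD14-deficient cells were 2.58-fold lower than wild type at both LPS times. Serpinb8 had 219.9, 195 and 237 in CD14-deficient cells at 0, 6 and 24 h, 242 and 669 with EGTA at 6 and 24 h, and 421, 249 and 759 in wild type. Its level was higher at 24 h than at 6 h by 2.76-fold with EGTA and 3.05-fold in wild type, beside 1.22-fold in CD14-deficient cells.

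Serpinb9b had 189, 429 and 124 in CD14-deficient cells at 0, 6 and 24 h, 357 and 153 with EGTA at 6 and 24 h, and 330, 572 and 278 in wild type. It was highest at 6 h in each series, unlike Serpinb9, which was highest at 24 h. Serpinb6a was lower at 24 h of LPS than unstimulated by 2.02-fold in CD14-deficient cells, 2.38-fold with EGTA and 1.96-fold in wild type, and CD14-deficient and wild-type cells differed by at most 1.04-fold at any time.

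**Figure D3:**
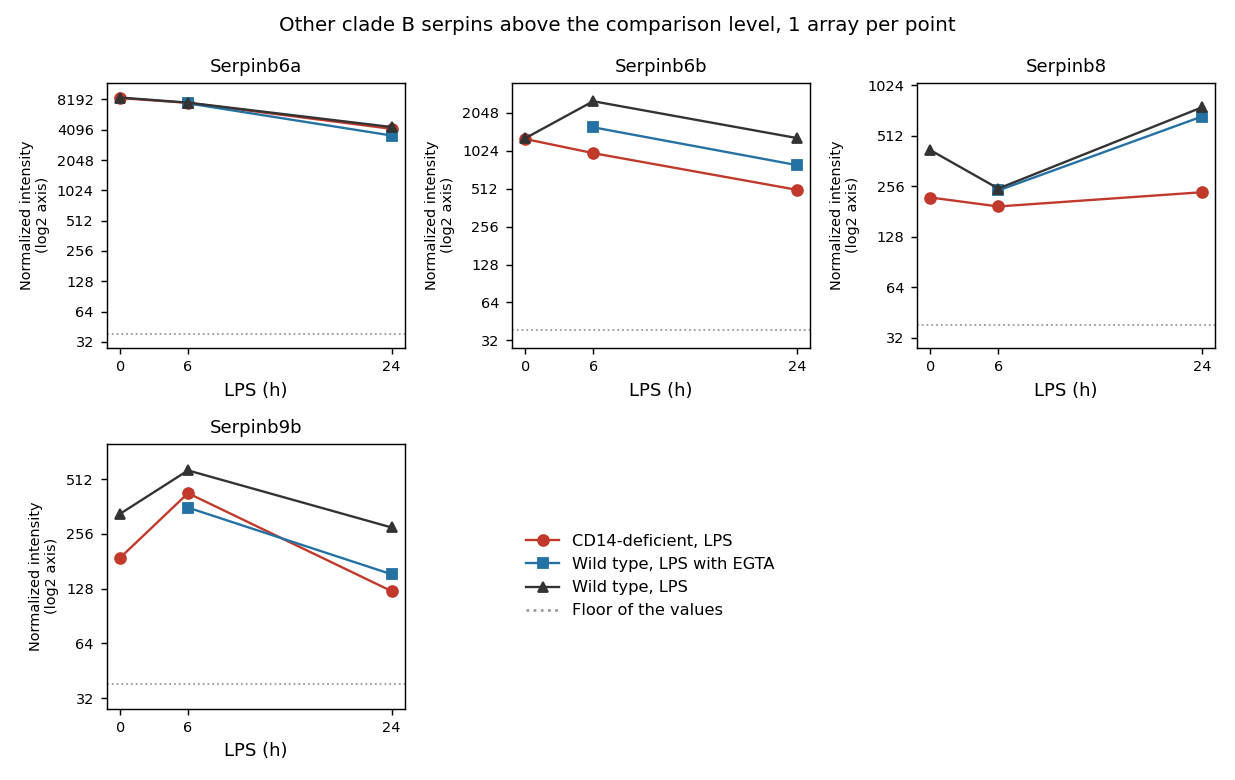
Normalized intensity on a log2 axis against hours of LPS for the 4 other clade B serpins above the comparison level, 1 array per point, for CD14-deficient cells, wild-type cells given LPS with EGTA and wild-type cells given LPS. Serpinb6b was highest in wild type at 6 h (2537), and Serpinb8 at 24 h was at 237 in CD14-deficient cells, against 759 in wild-type cells.

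Of 28 serpins of other clades, 13 had a probe set, none passed the comparison level and 12 were at the floor on all 8 arrays. A further list held 14 genes, of granule serine proteases, the class of Serpinb1a and Serpinb9 targets, and of perforin, which is not a protease. Of these 14, 12 were at the floor on every array, among them Gzmb, Ctsg and Prtn3, and none passed the comparison level. Whether these serpins inhibit each listed protease was not examined.

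The genes most alike in pattern were found among 3886 by Pearson's r of log2 values over the 8 arrays, as a description. The gene nearest to Serpinb1a was Zbtb8a (r = 0.95), followed by Tiam1, Serpinb6b, Pop4 and Cited2 (0.94 to 0.93). Nearest to Serpinb9 were Hmgn3 and Fcgr4 (both 0.98), then Svbp, Tmem192 and Asah2 (0.97). Nearest to Plaur was Nusap1, a spindle protein gene (1.00), then Niban2 (0.98), Ahnak, Ccnb2 and Pkmyt1 (0.97). For Serpinb2 the nearest were Arid3a (0.91), Sh2b2 (0.88), Zfand3, U90926 and Rcl1 (0.86), less close than for the others. For Plau, at the floor on 6 arrays, the nearest were Ung, Cdca7, Lyzl4, Elovl7 and Etl4, all at the floor on the same 6 arrays, so their r of 0.99 to 1.00 rests on the unstimulated pair.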

How the data were processed

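Total RNA of 8 macrophage cultures was hybridised to 1 Affymetrix array each. The deposited values are linear intensities made by the authors with MAS5, per the submitters' processing notes. A target scaling within MAS5, detection calls and a genome build are not given in the sources used here. The intensities were quantile normalized with limma 3.58.1 in R 4.3.3, floored at the 40th percentile and put on a log2 scale. The platform annotation named 1 gene for 20393 of 22690 probe sets, more than 1 for 691, which were left out, and did not list 1606; 20364 matched the RefSeq gene table of GRCm38.p6 by gene identifier. The probe set with the highest mean log2 represented a gene, and every probe set of a member was described. Log2 differences between 2 arrays were taken for 14 comparisons. With 1 array per group there was no test, and the number of arrays limits the precision. The procedure was tested on simulated data. Named genes were all members, list genes at least 2-fold different (at most 5 in each direction), and the 5 genes most correlated with each member among those with a log2 range of at least 1. List genes short of 2-fold that are named, the stromal and neutrophil markers and those at the floor were added after their values were seen. The members and lists were chosen with earlier results of these data known. Alternatives were the scaling, the floor, the filter, the fold and the probe set.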

Additional observations from a re-analysis of the deposited data

Results flagged for a closer look

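In 4 cases a member moved in opposite directions under the same contrast, with at least 1 of the differences past 2-fold. Each rests on 1 array per group, and none of these differences between groups was tested.

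Serpinb2 at 24 h against 6 h of LPS had a log2 difference of -0.70 in CD14-deficient cells, at least 1.21 with EGTA and at least 4.17 in wild type. In CD14-deficient cells against wild type it stood at 2.84 or more at 6 h of LPS and at -2.03 at 24 h.

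Serpinb1a at 24 h of LPS against unstimulated cells stood at -1.36 or lower in CD14-deficient cells and -1.23 with EGTA, against 0.51 in wild type, which was -0.24 as deposited. Plaur in CD14-deficient cells against wild type stood at 0.47 before LPS, 0.25 at 6 h and -1.003 at 24 h. As deposited, its 6 h value was -0.09 and its 24 h value -0.53, short of 2-fold, beside medians over all genes of -0.27 and 0.43.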

How the results depend on the processing

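Of 323 member differences recomputed with another scaling, floor or probe set, 304 stayed on their side of the 2-fold limit. Differences that were no longer compared in a setting are not among the 323. As deposited these included Serpinb2 with EGTA at 24 h against unstimulated cells and against 6 h. None past 2-fold changed sign, and 6 short of it did, 5 of them with intensities as deposited. Counts of members called stayed within 1.5 times in 109 of 126 recomputations. As deposited, the count was 0 in place of 2 for EGTA at 6 h against unstimulated cells and 3 in place of 0 for EGTA against none at 6 h, where the median of all genes shifted by -0.79. The shift ran from -0.86 to 0.45 over the comparisons, and the genes past 2-fold became 2 higher and 1353 lower in place of 37 and 18 for EGTA at 6 h, and 1089 and 215 in place of 357 and 425 for CD14 deficiency at 24 h. With the floor at the median, counts were 2 in place of 5 and 1 in place of 2 for CD14-deficient cells at 24 h against 0 h and 6 h, and 2 in place of 4 for EGTA at 24 h against unstimulated cells. The mean of all probe sets gave 1 in place of 2 for CD14-deficient cells at 24 h against 6 h and for EGTA against none at 24 h. A 1.5-fold limit gave 4 in place of 2 for CD14-deficient cells at 24 h against 6 h, 1 in place of 0 for EGTA at 6 h and 3 in place of 1 for CD14 deficiency before LPS. A 3-fold limit gave 1 in place of 3 and 3 in place of 5 for CD14-deficient cells at 6 h and 24 h against 0 h. For EGTA against unstimulated cells it gave 0 in place of 2 at 6 h and 1 in place of 4 at 24 h. For EGTA at 24 h against 6 h it gave 1 in place of 3. For CD14 deficiency it gave 0 in place of 1 before LPS and 2 in place of 4 at 24 h. A higher floor and a wider limit lose low or small differences by construction, and the cause of the change with deposited intensities was not tested. No paired analysis was possible because each group had 1 array. Values near the floor of 38.4 limit Serpinb2 and Plau most.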
